A study of Mus musculus with 4 samples.

Results

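The Hox genes are the homeobox genes that lie in the 4 clusters HoxA, HoxB, HoxC and HoxD, and they were followed here in open-chromatin profiles of the paraventricular nucleus of the hypothalamus (PVH). They were chosen by name, as the protein-coding genes of the reference table called Hoxa, Hoxb, Hoxc or Hoxd with a number, and 38 of the 21887 protein-coding genes are described. Each cluster was read in a window from 10 kb outside its first gene to 10 kb outside its last gene. The windows lay on the mm10 build at chromosome 6, 52145367 to 52270880 (HoxA), chromosome 11, 96184316 to 96378254 (HoxB), chromosome 15, 102911131 to 103046856 (HoxC), and chromosome 2, 74658225 to 74775142 (HoxD). They held 10, 10, 9 and 9 of the described genes and spanned 572 kb in all.

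ATAC-seq, in which a transposase cuts and tags accessible DNA, was run on nuclei of whole PVH dissections from mice aged 12 weeks. All mice, controls included, had the genotype Otp fl/fl; Ai14, that is, loxP-flanked alleles of Otp, a homeodomain gene of hypothalamic neurons, and a reporter that Cre switches on. The 2 libraries of the AAV-GFP group came from mice injected with a virus carrying GFP, and the 2 libraries of the AAV-Cre group from mice injected with a virus carrying Cre recombinase, with tissue taken 4 weeks later. The labels give no viral promoter, sex, sorting of infected cells or number of animals per library, and the spread within a group may therefore be technical.

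Hox proteins are transcription factors that give cells their position along the head-to-tail axis. In the embryo the genes are switched on in the order of their place in the cluster, from the hindbrain backwards, and the forebrain, from which the hypothalamus forms, lies in front of the Hox domains. In cells that do not use them, Hox clusters are a textbook target of Polycomb complexes, which mark histone H3 at lysine K27 and keep chromatin compact.

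No Hox gene had open chromatin at its start in all 4 libraries. A gene was counted as open in a library when a peak overlapped the start window, 1 kb to each side of a start site listed in RefSeq. Start sites were listed for 22 of the 38 genes, and for the other 16 both gene ends were used in the same way. With this rule 0 of 38 Hox genes were open in all 4 libraries, where 42.9% of all protein-coding genes were. A peak was missing from every library at 37 of 38 Hox genes (97.4%), against 40.9% of all protein-coding genes. By library, 0 Hox genes were open in AAV-GFP replicate 1, 1 in AAV-GFP replicate 2, 0 in AAV-Cre replicate 1 and 0 in AAV-Cre replicate 2. Over all protein-coding genes the same shares were 57.4%, 53.7%, 47% and 48.5%. No Hox gene was open in both libraries of 1 group and neither of the other, patterns found at 3.05% (AAV-GFP) and 0.064% (AAV-Cre) of all genes.

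The gene bodies were as empty as the starts. Counting peaks anywhere in the gene body as well, 36 of 38 Hox genes (94.7%) had no peak in any library, against 31.8% of all protein-coding genes. Hox genes are short, and 32 of the 38 span at most 10 kb. Of these 31 had no peak, against 57.1% of the 7926 protein-coding genes of that length. The body count matters because a start outside the listed ones is missed by the start window: Rad21 and Ash2l, for which no start was listed, had no peak at either gene end but had peaks inside the gene. An absent peak means that no signal passed the authors' threshold in that library. In dissected tissue, a site open in few cells and a site weakly open in many cannot be told apart, and the depth of the libraries is unknown.

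**Figure D1:**
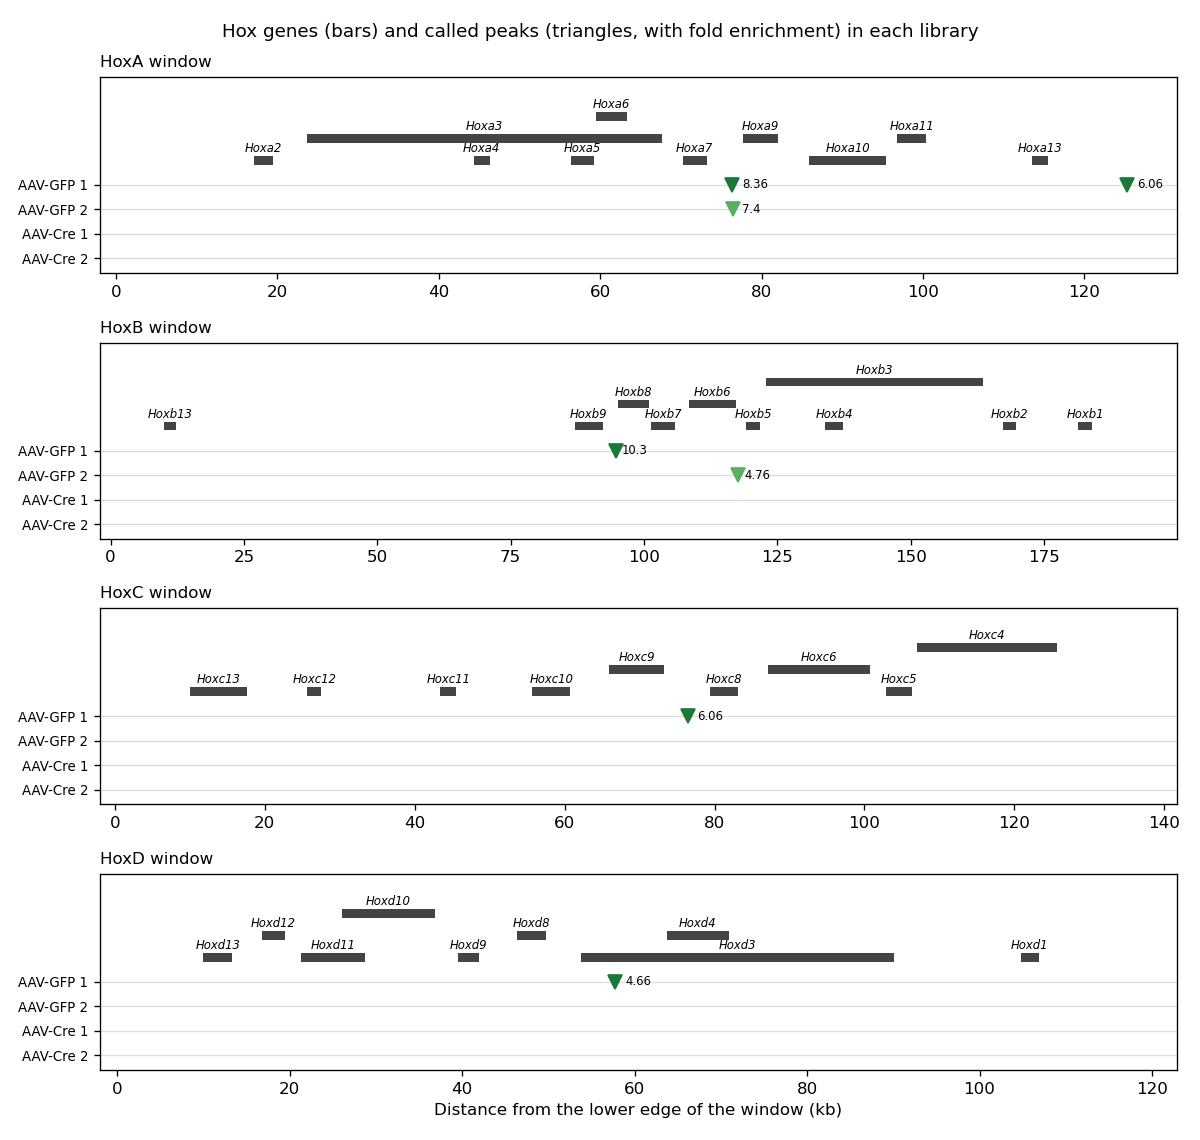
Each panel is 1 Hox window, with position in kb from its lower edge on the horizontal axis, the described Hox genes as bars, and 1 row for each library below them. Triangles are called peaks with their fold enrichment; the 7 peaks all lie in the rows of the AAV-GFP libraries, and the only position marked in both of these rows lies between Hoxa7 and Hoxa9.

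Each stretch of the head-to-tail order gave nearly the same count. In paralogue groups 1 to 4, genes such as Hoxa2 and Hoxb1 that pattern the hindbrain, 11 of 11 genes had no start peak in any library. In groups 5 to 8, which include Hoxc6 and Hoxc8 of the neck and trunk, 10 of 11 had none, the exception being Hoxb6. In groups 9 to 13, which include the limb and urogenital genes Hoxa13 and Hoxd13, 16 of 16 had none. By cluster the counts without a start peak were 10 of 10 for HoxA, 9 of 10 for HoxB, 9 of 9 for HoxC and 9 of 9 for HoxD.

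The windows were not wholly empty. Overlapping peaks of different libraries, by 1 bp or more, were joined into 1 region, and 6 of the 67299 regions of the series lay in the Hox windows. None of the 6 was shared by all 4 libraries, a pattern of 21.7% of all regions, and 5 of them were seen in 1 library only, a pattern of 48.8% of all regions. Of these 5, 4 were in AAV-GFP replicate 1 alone, as were 34.9% of all regions, and 1 was in AAV-GFP replicate 2 alone. 1 region was specific to the AAV-GFP group, with a peak in replicates 1 and 2 and none with Cre, a pattern of 11.5% of all regions. The converse pattern was found 0 times in the windows and in 1.18% of all regions. Because this count asks for a peak in every control, it was 2 without AAV-GFP replicate 1 and 5 without AAV-GFP replicate 2.

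The region present in both controls lay between Hoxa7 and Hoxa9, on chromosome 6 at 52221595 to 52221930, a span of 336 bp. Both genes are read from the minus strand, so it lies 3021 bp upstream of the listed start of Hoxa7 and 1166 bp past the far end of Hoxa9, and the gene table has no gene across it. Hoxa7 acts in the trunk skeleton and Hoxa9 in blood progenitors. AAV-GFP replicate 1 had a peak there with a fold enrichment, the authors' own ratio of summit signal to background for that peak, of 8.36 and a −log10 q of 12.1. AAV-GFP replicate 2 had a peak with a fold of 7.4 and a −log10 q of 8.94. AAV-Cre replicates 1 and 2 had none. The summits of the control peaks were at 52221768 and 52221757, and in the order of peak strength by −log10 p these peaks stood at percentiles 28.6 and 39.8 of their lists, counted from the strongest. The authors' deposited group list for AAV-GFP had a peak at the same place, with a fold of 9.55 and a −log10 q of 19.8, and that for AAV-Cre had none.

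The lengths of the peak lists moved with the groups, at 57682 and 34100 peaks in the AAV-GFP and 23384 and 26612 in the AAV-Cre libraries. After every list was reduced to its 23384 strongest peaks, the region between Hoxa7 and Hoxa9 was still found in both controls and not with Cre. Of the 3061 regions shared by both controls whose weaker control peak stood between percentiles 30 and 40 of its list, 13.9% lacked a peak in both AAV-Cre libraries. Of the 1815 of these outside the start windows of protein-coding genes, 20.5% did.

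The promoters of the genes to each side of this region are shown because they had no peak in any library, while the stretch between the genes had one in both controls. The sequences are the 250 bases upstream of the RefSeq start (GRCm38.p6), 5′ to 3′ in the direction of the gene, with CpG dinucleotides in capitals. That of Hoxa7 holds 7 CpGs and that of Hoxa9 holds 3.
Hoxa7, chr6:52218574-52218823, minus strand: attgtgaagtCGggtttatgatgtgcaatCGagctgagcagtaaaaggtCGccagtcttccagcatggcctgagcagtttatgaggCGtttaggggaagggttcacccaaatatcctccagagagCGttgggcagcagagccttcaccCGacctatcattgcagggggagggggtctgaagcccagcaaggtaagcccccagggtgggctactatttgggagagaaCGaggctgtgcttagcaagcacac
Hoxa9, chr6:52227371-52227620, minus strand: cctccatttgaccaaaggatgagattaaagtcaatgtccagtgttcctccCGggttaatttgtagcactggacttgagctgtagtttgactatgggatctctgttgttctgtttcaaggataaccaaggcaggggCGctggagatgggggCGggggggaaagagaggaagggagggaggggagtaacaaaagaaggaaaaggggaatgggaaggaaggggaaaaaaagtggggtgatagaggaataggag

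Of the 5 regions seen in 1 library, 3 lay between genes. The peak with the highest fold enrichment in HoxB was at chromosome 11, 96278906 to 96279032, in AAV-GFP replicate 1 (fold 10.3, −log10 q 16.9, percentile 19.1). It lay 368 bp below the lower end of Hoxb8, which is read from the plus strand, and so upstream of that end. From Hoxb9 it lay 2310 bp. The RefSeq start listed for Hoxb8 was more than 1 kb away, so the peak was not counted at that start. Under the rule of both gene ends, used for the genes without a listed start, Hoxb8 would count as open in AAV-GFP replicate 1. AAV-GFP replicate 2, AAV-Cre replicate 1 and AAV-Cre replicate 2 had no peak there. The other HoxB region, at 96301911 to 96302120, was called only in AAV-GFP replicate 2 (fold 4.76, −log10 q 3.7, percentile 80.1). It lay in the antisense transcript Hoxb5os, 341 bp above the upper end of Hoxb6 and 1391 bp below Hoxb5. This peak is the reason that Hoxb6 counts as open in 1 library, through a gene end and not a listed start.

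In HoxC the single region, at chromosome 15, 102987530 to 102987652, lay between Hoxc9, 3085 bp away, and Hoxc8, 2886 bp away. Only AAV-GFP replicate 1 had a peak there, with a fold of 6.06 and a −log10 q of 6.67. In HoxD the single region, at chromosome 2, 74715887 to 74716028, lay inside the long gene model of Hoxd3 and near the start of its antisense transcript Hoxd3os1. Its peak came from AAV-GFP replicate 1 (fold 4.66, −log10 q 3.83, percentile 76.0). The last region, at chromosome 6, 52270606 to 52270747, lay 9725 bp outside Hoxa13 near the edge of the HoxA window, again in AAV-GFP replicate 1 alone (fold 6.06, −log10 q 6.67). None of these 5 regions was seen in a second library or in either of the authors' deposited group lists.

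Counted by library, the Hox windows held 5 peaks in AAV-GFP replicate 1, 2 in AAV-GFP replicate 2, 0 in AAV-Cre replicate 1 and 0 in AAV-Cre replicate 2. The mean was 3.5 ± 2.12 (SD, n = 2) in the AAV-GFP and 0 ± 0 (SD, n = 2) in the AAV-Cre group, and the exact permutation test (two-sided) gave p = 0.333, the smallest that 2 against 2 libraries allow. The groups did not overlap, but neither did the lengths of their whole peak lists, 57682 and 34100 against 23384 and 26612. The comparison cannot reach a p of 0.05. With window margins of 50 kb the difference in means was 3, and the exact permutation p was 0.667. The sex of the mice is not in the labels, and peaks at Y-linked genes differed between the libraries. Uty and Eif2s3y had a start peak in each AAV-GFP library and in 0 AAV-Cre libraries, a pattern of 3.05% of all protein-coding genes. Ddx3y had a start peak in each AAV-GFP library and in AAV-Cre replicate 2, and Kdm5d had none in any. Peaks on chromosome Y were called in every library, 63 and 43 with AAV-GFP and 21 and 23 with AAV-Cre. Per 1000 peaks of the list these were 1.09 and 1.26 with AAV-GFP and 0.898 and 0.864 with AAV-Cre. The part of sex in the Hox window counts was not tested. Peaks covered 0.805 and 0.487 kb of the windows in the controls, or 0.141% and 0.0851%, and none of them in the AAV-Cre libraries. Per 100000 peaks of the library's own list, the windows held 8.67 and 5.87 peaks in the controls. In lists of equal length 3 peaks were left in the windows, 2 in AAV-GFP replicate 1 and 1 in AAV-GFP replicate 2.

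Taken over the 4 clusters together, the sequence around them was less empty than the clusters. In the 500 kb to each side of the 4 windows, the libraries had 29.8 and 19.5 peaks per Mb (AAV-GFP) and 14 and 14.8 per Mb (AAV-Cre), against 8.74, 3.5, 0 and 0 per Mb inside the windows, in the same order. The contrast was not equal over the clusters, since HoxC flanks held 55, 41, 31 and 35 of the 119, 78, 56 and 59 flank peaks. HoxD flanks held 19, 6, 3 and 4. In AAV-GFP replicate 1 the HoxA window held 2 peaks in 126 kb, and the 500 kb to each side of it held 18. All flanks together held 38 regions shared by all 4 libraries, 19 of them around HoxC, 10 around HoxB, 6 around HoxA and 3 around HoxD. The distance between the last shared region below a cluster and the first above it was 575 kb for HoxA, 380 kb for HoxB, 374 kb for HoxC and 246 kb for HoxD. The median distance between neighbouring shared regions in the genome was 60.1 kb, and 6.26%, 9.88%, 10.1% and 15.6% of distances were at least as long as those across the 4 clusters. The 4 were taken because they span a cluster, so each had to be longer than its cluster. A long distance also covers more of the genome than a short one. The shares therefore do not show how unusual such a distance is at a given place.

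**Figure D2:**
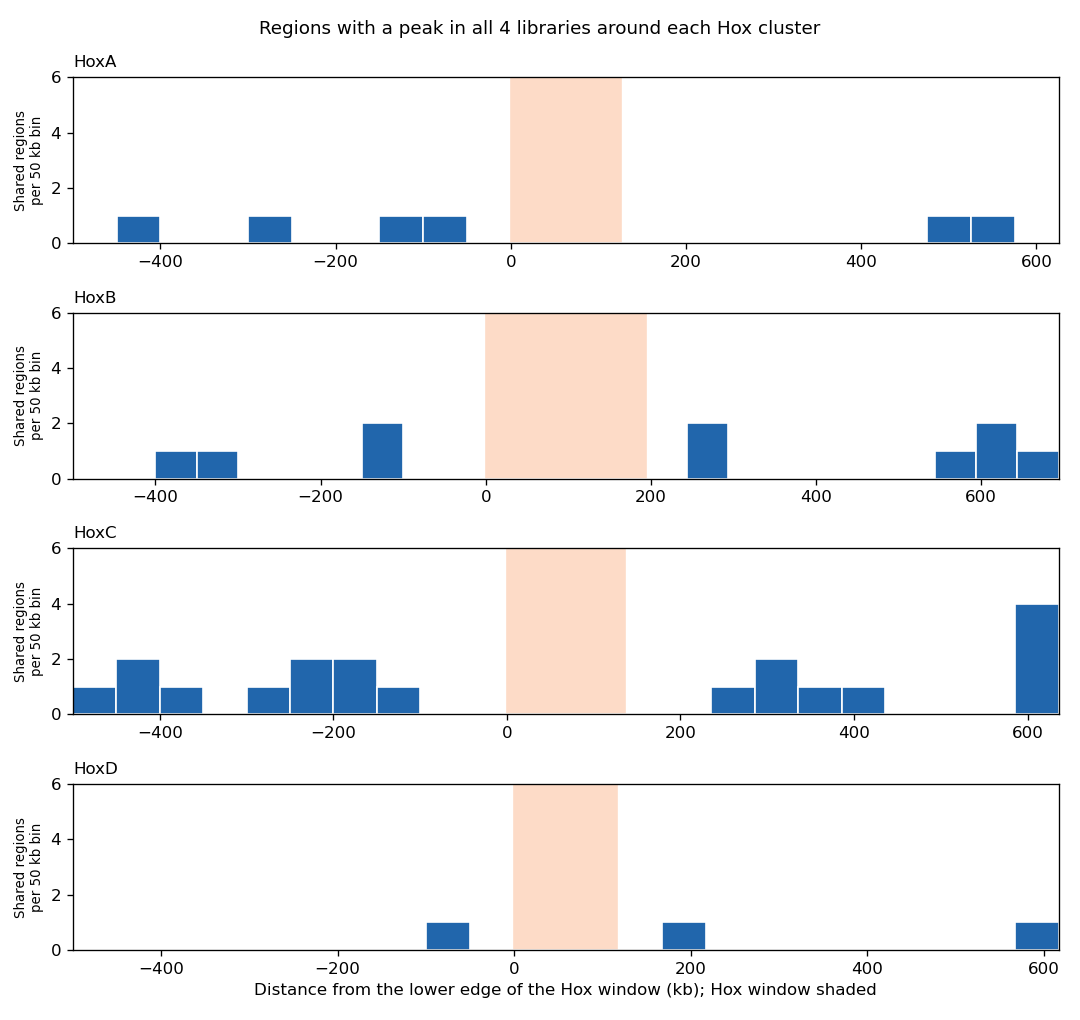
Bars count regions with a peak in all 4 libraries per 50 kb bin, over the 500 kb to each side of each Hox window, against distance in kb from the lower edge of the window. The shaded Hox windows have no bar in any panel, and the flanks hold 38 such regions.

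Of the 8 shared regions nearest to the clusters, 1 to each side of each, 5 lay in the start window of a bordering gene (Hibadh, Atp5g1, Smug1, Lnpk and Mtx2). The other 3 lay 51.6 kb from Skap2 below HoxA, 66.7 kb from Calcoco1 below HoxC and 7.53 kb from Skap1 above HoxB. Of the 24 nearest protein-coding neighbours, 3 to each side of each cluster, 17 were open at the start in all 4 libraries. Of all protein-coding genes 42.9% were. Mtx2, a mitochondrial import gene 60.7 kb above HoxD, had folds of 12.8 and 8.82 with AAV-GFP, replicates 1 and 2, and of 7 and 6.08 with AAV-Cre. Lnpk, a gene of the endoplasmic reticulum 88.8 kb below HoxD, had 20.1, 15.5, 8.59 and 13.4 in the same order. Skap2, an adaptor protein gene 143 kb below HoxA, had 9.19, 8.21, 5.39 and 5.52. Smug1, a DNA repair gene 116 kb above HoxC, had 8.08, 7.33, 6.42 and 5.91. Each of these genes was thus open in every library while the adjoining Hox genes were not. The homeobox genes Evx1, 52.6 kb from HoxA, and Evx2, 6.7 kb from HoxD, had no start peak in any library, nor did Ttll6, Calcoco2 and Skap1 beside HoxB.

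Every Hox gene body lay at least 60.4 kb from the nearest region shared by all 4 libraries. The median distance was 136 kb and the largest 194 kb, for Hoxa13. Over all protein-coding genes the median was 2.03 kb, 47.2% overlapped a shared region, and 18.1% lay as far away as the median Hox gene. The nearest Hox gene was Hoxd1, beside Mtx2, at 60.4 kb. Groups 1 to 4 lay a median of 103 kb away, groups 5 to 8 151 kb and groups 9 to 13 153 kb, with ranges that overlapped (60.4 to 135, 118 to 171 and 88.9 to 194 kb). LIM homeodomain genes, a family with forebrain members, had a median of 27.5 kb, and other forebrain homeobox genes 72.1 kb. The ParaHox and Evx genes, homeobox relatives of the Hox genes, had a median of 127 kb (40.1 to 249 kb), close to that of the Hox genes, and 0 of 8 overlapped a shared region.

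**Figure D3:**
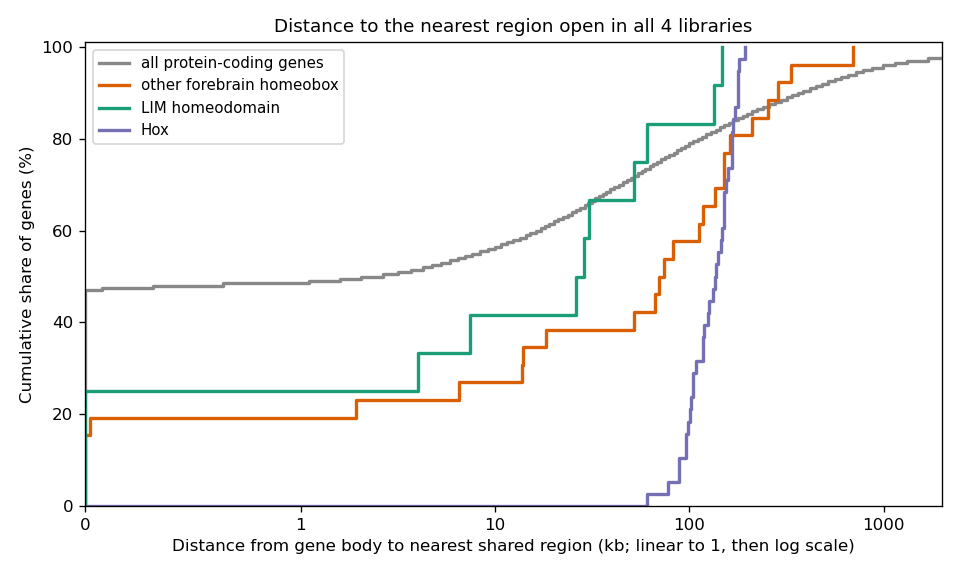
The cumulative share of genes (%) is plotted against the distance in kb from the gene body to the nearest region open in all 4 libraries, linear to 1 kb and logarithmic beyond. The Hox line stays at 0 until 60.4 kb and is complete at 194 kb, whereas 47.2% of all protein-coding genes start at 0.

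Crowded gene neighbourhoods without shared open chromatin were not rare in these lists. Of 3309 runs of 9 neighbouring protein-coding genes spanning at most 200 kb, which overlap each other, 777 (23.5%) had no region shared by all 4 libraries. Runs made up of Hox genes alone numbered 7, and 7 of 7 had none. Olfactory receptor genes, used mainly in the nose, made up 59.7% of the runs without a shared region, and keratin genes 6.31%. The shares of these families among all 3309 runs are not given, so whether they are over-represented cannot be judged. A run without a peak in any library was found in 15.9% of all runs and in 0 of the 7 Hox runs, each of which contained at least 1 of the control peaks described above.

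Many HoxA and HoxD starts had CpG counts at which most genes were open, yet had no peak. Promoter sequences of 300 bp, from 250 bases before to 50 after a start, were listed for 22 of 38 Hox genes (57.9%), too few to judge the whole family, so the check is void for HoxB and HoxC. They were listed for 18 of 19 genes of HoxA and HoxD. In these 18 genes the CpG count ran from 4 (Hoxa9 and Hoxd4) to 45 (Hoxa13), with a median of 20, against a median of 15 over 17492 protein-coding genes. Of the 6803 genes with at least 20 CpGs, 75.5% had a start peak in all 4 libraries and 6.92% had none in any. Of the 11 HoxA and HoxD genes with at least 20 CpGs, 0 had a start peak in any library. Hoxd13, with 37, and Hoxa13, with 45, belong to the class of 30 to 70 CpGs, in which 75.4% of genes were open in all 4 libraries.

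**Figure D4:**
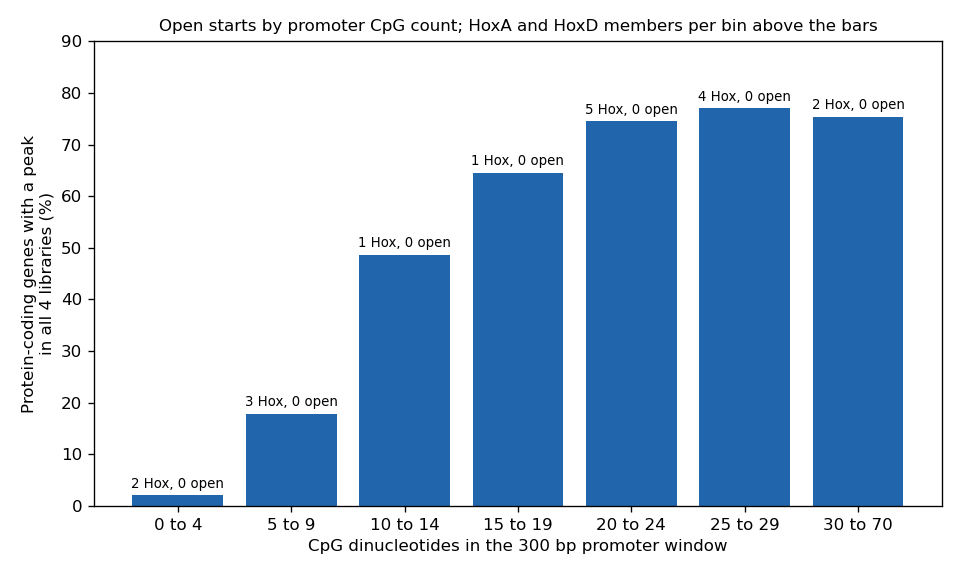
Bars give the share (%) of protein-coding genes with a start peak in all 4 libraries, by the number of CpG dinucleotides in the 300 bp promoter sequence. The numbers above the bars count HoxA and HoxD genes of each class, of which 0 were open in any library, while the share of all genes open was 2.08% in the lowest class and 75.4% in the highest.

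Hoxd13, which shapes the digits, and Mtx2, the open neighbour at the other end of the same cluster, show the contrast in sequence. The upstream 250 bases of Hoxd13 hold 31 CpGs and those of Mtx2 hold 12, again in capitals. Hoxd13 had no start peak in any library and Mtx2 had 1 in every library, in a shared region at 74825573 to 74826136 that overlaps the stretch shown.
Hoxd13, chr2:74667975-74668224, plus strand: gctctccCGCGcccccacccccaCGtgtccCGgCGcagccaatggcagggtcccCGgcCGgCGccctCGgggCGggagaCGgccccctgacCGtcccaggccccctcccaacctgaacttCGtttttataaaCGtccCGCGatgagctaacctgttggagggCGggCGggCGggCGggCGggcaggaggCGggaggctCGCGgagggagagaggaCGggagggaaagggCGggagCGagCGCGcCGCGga
Mtx2, chr2:74825562-74825811, plus strand: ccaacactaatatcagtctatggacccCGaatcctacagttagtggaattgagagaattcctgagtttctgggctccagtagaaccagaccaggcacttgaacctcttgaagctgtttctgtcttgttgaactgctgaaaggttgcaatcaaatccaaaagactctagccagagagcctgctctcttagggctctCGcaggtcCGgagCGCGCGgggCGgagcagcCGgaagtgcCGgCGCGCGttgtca
Each motif was searched on both strands of the 300 bp promoters. TATAAA was in 3 of 18 HoxA and HoxD promoters, Hoxa10, Hoxd4 and Hoxd13, and in 14.8% of all. TGATTNAT, a sequence bound by Hox and Pbx proteins together, was in 2 of 18, Hoxa2 and Hoxd11, and in 3.25% of all. A match to letters is a description and does not show binding.

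The clusters also carry 34 genes that encode no protein, and 2 of these had a peak, in 1 library each. Of 27 long non-coding RNA genes, 1 had a start peak in any library: Hoxd3os1, in AAV-GFP replicate 1 alone. The same shares over all non-coding genes were not computed, so these counts cannot show whether those of the Hox clusters are unusual. Hotair and Hottip, non-coding RNAs of the HoxC and HoxA clusters studied for effects on chromatin, had no peak at the start or in the body in any library, and neither did Hotairm1 or Haglr. The 6 microRNA genes, which repress messenger RNAs and among them Hox messages, had no peak within 1 kb of either end. The 5p products of Mir10a, Mir10b, Mir196a-1, Mir196a-2 and Mir196b fall into a pair of families by the seed, bases 2 to 8, shown in capitals. Mir615 belongs to neither. The sequences are given because the family members sit in different clusters and no locus had a peak.
miR-10a-5p: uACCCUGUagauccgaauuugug
miR-10b-5p: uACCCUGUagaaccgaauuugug
miR-196a-5p: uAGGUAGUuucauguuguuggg
miR-196b-5p: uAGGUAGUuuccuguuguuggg
The seed ACCCUGU belongs to Mir10a in HoxB and Mir10b in HoxD, and the seed AGGUAGU to Mir196b in HoxA, Mir196a-1 in HoxB and Mir196a-2 in HoxC. The nearest region of any library was 15 kb from Mir10a, 10 kb from Mir10b, 13.6 kb from Mir196a-1, 14.1 kb from Mir196a-2 and 8.15 kb from Mir196b. For Mir196b it was the region between Hoxa7 and Hoxa9. Mir615, in HoxC, lay 27.3 kb from the nearest region.

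Other homeobox families were read in the same way. Of the 8 ParaHox and Evx genes (Gsx1, Gsx2, Pdx1, Cdx1, Cdx2, Cdx4, Evx1 and Evx2), which pattern gut, tail and neural tube, 8 had no start peak in any library. Of 12 LIM homeodomain genes, 2 were open in all 4 libraries, 3 in some and 7 in none. Isl1, a gene of hypothalamic and motor neurons, had folds of 7.07 and 6.39 with AAV-GFP and of 4.31 and 4.84 with AAV-Cre. Lhx6, Lhx8 and Lhx9 were among the 7 without a start peak in any library. Of 26 other forebrain homeobox genes, 5 were open in all 4 libraries, 9 in some and 12 in none. Pou3f2, which acts in PVH development, had folds of 8.97, 6.1, 7.04 and 5.95, and Rax, an early hypothalamic gene, 8.86, 7.92, 4.76 and 7.52, in the same order. The 12 open in none included Nkx2-1, Nkx2-4, Six6, Otx2, Bsx, Hmx2 and Hmx3. These counts stand beside 42.9% of all protein-coding genes open in all 4 libraries, and the difference between the lists was not tested because genes are not replicates.

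The lists of partners and regulators of Hox genes differed. Over all protein-coding genes, 42.9% were open in all 4 libraries and 40.9% in none. TALE homeodomain proteins bind DNA together with Hox proteins, and 6 of their 9 genes were open in all 4 libraries, among them Meis3, Pbx3 and Pknox1. Pbx3 had folds of 8.84 and 8.72 with AAV-GFP and of 5.93 and 6.67 with AAV-Cre. Meis1 had a peak in 3 libraries, Pbx2 in 1 and Meis2 in 0. Of 29 genes of Polycomb complexes, 22 (75.9%) were open in all 4 libraries, among them the K27 methyltransferase gene Ezh2, with folds of 15.5, 12.5, 7.88 and 7.83, its partners Suz12 and Eed, and Cbx2 and Cbx8, whose proteins read the mark. Pcgf2 had no start peak in any library, and Cbx7 was open with AAV-GFP (5.32 and 4.95) and had no start peak with AAV-Cre. The pattern of Cbx7 was found at 1 of 29 Polycomb genes and at 3.05% of all protein-coding genes.

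Of 16 genes of Trithorax, K27 demethylase, CTCF and cohesin proteins, which oppose Polycomb or set boundaries within Hox clusters, 10 were open in all 4 libraries. That is 62.5%, against 42.9% of all protein-coding genes. Kmt2a, a methyltransferase that maintains Hox expression, had folds of 5.66, 5.63, 4.44 and 5.22. Ctcf, the boundary protein, had a peak in 3 libraries (6.96 and 6.53 in the controls, 5.01 in AAV-Cre replicate 2). Retinoic acid switches on Hox genes in the hindbrain. Of 14 genes of its pathway, 2 (14.3%) were open in all 4 libraries, the receptors Rxrb and Rxrg. Of these 14 genes 8 had no start peak in any library (57.1%, against 40.9% of all protein-coding genes). Among them were the synthesis genes Aldh1a1, Aldh1a2 and Aldh1a3 and the degradation genes Cyp26a1, Cyp26b1 and Cyp26c1. The receptors Rara (7.21 and 5.23) and Rarb (5.75 and 5.69) were open in each control and had no start peak with AAV-Cre. This pattern was found at 2 of 14 genes of the list and at 3.05% of all protein-coding genes. The AAV-Cre lists were also shorter, and the difference was not tested.

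**Figure D5:**
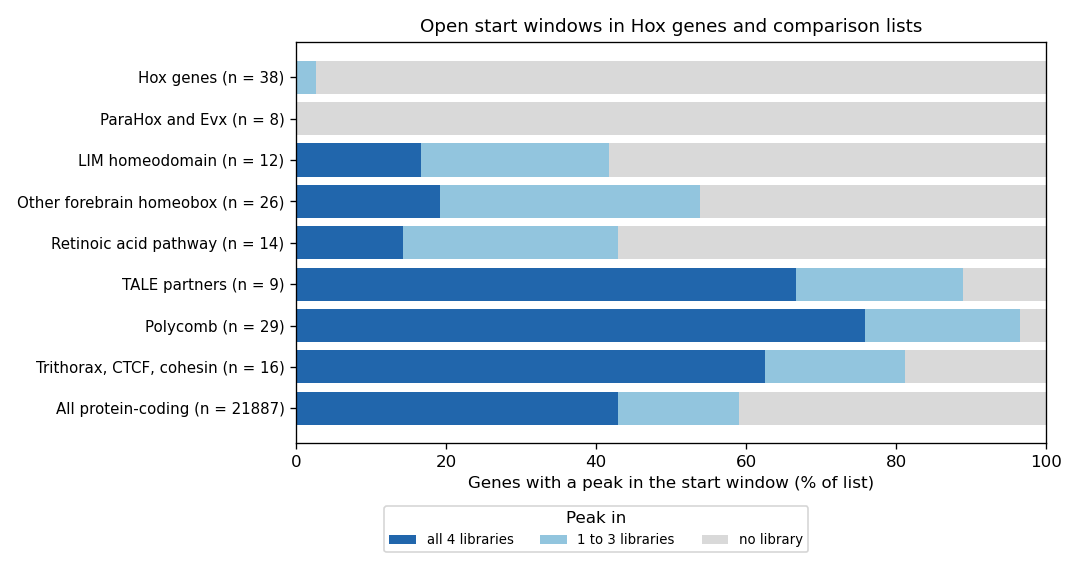
Stacked bars give, for each gene list, the share of genes (%) with a start peak in all 4 libraries, in 1 to 3 libraries and in no library. The Hox bar has no part in the all-4 class and 97.4% in the no-library class. Of Polycomb genes 75.9% were open in all 4 libraries, and of all protein-coding genes 42.9%.

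Markers of the tissue and of cells that could carry open Hox genes were read in the same way. Of 6 neuronal marker genes, 5, 4, 4 and 4 had a start peak in AAV-GFP replicates 1 and 2 and AAV-Cre replicates 1 and 2. Of 8 PVH and hypothalamic markers the counts were 4, 2, 1 and 3. Over all protein-coding genes, 57.4%, 53.7%, 47% and 48.5% had a start peak, in the same order. The share of PVH markers was lower than this in every library. Otp was open in 3 libraries, Sim1 in 1, and Avp, Oxt, Trh and Nkx2-1 in none. Of 10 hindbrain and spinal cord markers, 2 were open in each library, and the other 8, among them Tlx3, Lbx1, En1 and Gbx2, had no start peak in any library. The 4 microglial and 5 endothelial and mural markers had no start peak in any library, and of 6 fibroblast markers 1, 1, 0 and 1 had a peak. Astrocyte markers (2, 1, 0 and 1 of 5) and oligodendrocyte markers (3, 1, 0 and 1 of 6) were open most often in AAV-GFP replicate 1. So were the neuronal and the PVH markers, and this library had the longest peak list, with 57682 peaks. It also had most Hox window peaks, and the part of any cell type in these peaks was not tested.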

How the data were processed

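The submitters' processing notes name FastQC, Trim Galore, Bowtie2, MACS2 and the mm10 build. Tool versions, read filters and the threshold for peaks: not given in the sources used here. For each library and each group, the authors deposited 1 peak list. Each deposited list holds a score, a fold enrichment (a ratio) and −log10 values of p and q for every peak. The fold and −log10 values served to describe, order or filter the peaks of 1 list, and the score was not used. Without read counts, depth is unknown.

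Genes, start sites and sequences came from RefSeq tables of GRCm38.p6, which has the coordinates of mm10. 1 of 39 Hox genes is not reported here. Merging was tested on 5000 simulated regions, of which 100% were recovered (Python 3.11.15). The simulated regions lay well apart and all peaks of a region shared a base, so chained or adjoining peaks were not tested. By rule, Hox genes with any peak, regions in at least 2 libraries, the strongest other region of each cluster, bordering genes, and list genes open in all 4 libraries or in none could be named. Other list genes and regions were named after their values were seen. The members and lists were chosen with earlier results of these data known. Alternatives were a −log10 q of at least 5, equal list lengths, other start windows and margins, 50% cover, group lists, a replicate block and leaving out each library.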

Additional observations from a re-analysis of the deposited data

How the results depend on the processing

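The count of Hox genes open in all 4 libraries, of regions shared by all 4 and of AAV-Cre-specific regions was 0 in every alternative run. Hox genes without a start peak numbered 35 to 38 against 37, the lowest with start windows of 2500 bp, which added Hoxb5 and Hoxb9 to Hoxb6. With windows at both gene ends of every gene the number was 36, with Hoxb8 added to Hoxb6. The AAV-GFP-specific region between Hoxa7 and Hoxa9 kept its pattern in the 4 alternatives that could alter it: a −log10 q of at least 5, equal list length, 50% cover and the group lists. Leaving out a library gave 1 to 5 AAV-GFP-specific regions against 1, with 2 without AAV-GFP replicate 1 and 5 without AAV-GFP replicate 2, since fewer libraries had to hold the peak. The difference in mean window peaks, 3.5, was 1.5 at equal list length and 2 to 5 without a library, and covered length, 0.646 kb, was 0.338 and 0.487 to 0.805 kb. The exact permutation p ran from 0.333 to 0.667. It was 0.667 for window peaks with a margin of 50 kb and without AAV-Cre replicate 1 or 2.

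Libraries of each group are numbered 1 and 2 in the labels. Under the replicate block, counts stayed the same by construction (0, 37, 0, 1 and 0), and the differences of 3.5 peaks and 0.646 kb had an exact p of 0.5, the smallest that 2 pairs allow. Same-numbered libraries shared a fraction of covered bp of 0.321 and 0.427, against 0.353 and 0.401 for the other pairs between groups, and the numbers were not taken to pair libraries. Depth is unknown, and a weak site may have gone uncalled in any library.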

Other observations

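The genes bordering the clusters are themselves related to each other, because the Hox clusters arose by duplication of larger chromosome segments, and the copies were alike in some families and not in others. Cbx3 near HoxA, Cbx1 near HoxB and Cbx5 near HoxC, which encode the heterochromatin proteins HP1, each had a start peak in all 4 libraries. Their folds in AAV-GFP replicates 1 and 2 and AAV-Cre replicates 1 and 2 were 8.56, 9.46, 9.13 and 7.98 for Cbx3. Cbx1 had 11.9, 7.75, 7 and 6.76. Cbx5 had 9.81, 9.32, 10.5 and 7.92, at peaks shared with the adjoining start of Hnrnpa1, an RNA-binding protein gene. Atp5g1 near HoxB, Atp5g2 near HoxC and Atp5g3 near HoxD, which encode the same subunit of mitochondrial ATP synthase, were also open in all 4 libraries.

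Other families were split. Skap2, beside HoxA, was open in all 4 libraries, and its relative Skap1, beside HoxB, had no peak at either gene end. Calcoco1, an autophagy-related gene beside HoxC, had folds of 15, 13.1, 10.7 and 11.7, and its relative Calcoco2, beside HoxB, had no peak at either gene end. No start was listed for Skap1 or Calcoco2, so an inner start would have been missed. Snx11, a sorting nexin gene near HoxB, was open in all 4 libraries (19, 21.2, 15.1 and 18), and Snx10, near HoxA, in 3 (7.18, 6.67 and 6.11, none in AAV-Cre replicate 2). These neighbours were described after their values were seen.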
